A study of Mus musculus with 7 samples.

Results

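The genes described here encode proteins that sense DNA damage, signal it or repair it. They were a list of 39 genes, picked by name and sorted into pathways, and a gene was measured where a probe set of the array was annotated to that gene alone. This held for 38 of the 39, out of 19938 genes measured in all, and Xrcc2 was not analysed here. RNA came from marrow hematopoietic stem cells (HSCs) of female C57BL/6 mice, sorted by FACS as lineage-negative Sca1+ c-Kit+ cells with CD150 and without CD48. Both Cebpa alleles were flanked by loxP sites in all mice, which carried either no Cre (Cebpa fl/fl, 3 arrays) or the transgene Mx1Cre (Cebpa Δ/Δ, 4 arrays). All were 10 to 12 weeks old at the start, were injected with pIpC, which induces interferon, and were analysed at day 18. The methods also give mice the antibiotic ciprofloxacin in the drinking water after the deletion. The Mx1 promoter answers to interferon and is not limited to HSCs, so the surrounding marrow may lose Cebpa as well. No mice with Mx1Cre and unfloxed Cebpa were among these samples, so effects of Cre and of the loss of Cebpa cannot be told apart.

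Cells meet a DNA double-strand break with the Mre11-Rad50-Nbn complex, which holds the ends and calls in the kinase ATM, while single-stranded DNA at stalled forks calls in ATR. Breaks are then joined end to end, at any time of the cell cycle, or copied from the sister chromatid by homologous recombination, which needs a replicated template. Damaged bases, bulky adducts and mispairs are cut out by base excision, nucleotide excision and mismatch repair, and crosslinks between the strands are unhooked by the Fanconi anaemia pathway. HSCs are mostly resting and are known for relying on end joining while they rest. C/EBPα, the product of Cebpa, is a transcription factor required for granulocyte development.

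Values are log2 RMA intensities, in which 1 unit is a doubling of the probe set signal, and every difference subtracts the Cebpa fl/fl mean from the Cebpa Δ/Δ mean, with the standard error (SE) of the limma fit over all 19938 genes. RMA gives the probe values of all arrays the same distribution before they are summarised, so the differences are relative to the other genes of the array. Brightness also depends on the probes, and levels are therefore compared between arrays and not between genes. The 7 arrays had median intensities of 46.2 to 50.4 and mean correlations with the other arrays of 0.979 to 0.985. Control array 1 (0.9788) and deletion array 3, labelled Cebpa Δ/Δ 3 (0.9794), correlated least. In an alternative fit with array weights they also had the lowest weights, 0.54 and 0.68, where the others had 1.07 to 1.44. Differences that rest on either array are therefore less certain, and both were left out together in an alternative given below. Cebpa itself stood at 5.54, 5.75 and 5.63 on the control arrays and at 5.11, 5.24, 5.27 and 5.27 on the Cebpa Δ/Δ arrays. The genotypes thus did not overlap (log2 fold change -0.41, SE 0.07). All 7 values lay below the median gene mean of 5.86, so the Cebpa signal was low. What makes up the signal left on the Cebpa Δ/Δ arrays was not tested.

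The arrays differed in the cells or cell states they held, and this touches every comparison that follows. In bulk RNA, fewer cells of a type and less RNA per cell cannot be told apart. Of 17 erythroid genes, 16 were higher without Cebpa at an unadjusted p under 0.05, and their summed intensity was 2765 to 4789 in Cebpa fl/fl and 8379 to 13986 in Cebpa Δ/Δ. Of 15 neutrophil genes, 12 were lower, with sums of 7974 to 20926 against 1542 to 2386. Of 14 lymphoid genes, 10 were higher (sums of 734 to 1303 against 1340 to 2151), as were 6 of 11 macrophage and dendritic genes (441 to 575 against 709 to 1362), while 0 of 7 megakaryocyte genes passed (1129 to 1628 against 1270 to 1510). Of the 8 measured genes that mark HSCs or their sort, 0 passed, with sums of 4292 to 4629 in Cebpa fl/fl, and of 3023, 4361, 2546 and 4058 on Cebpa Δ/Δ arrays 1 to 4, the lowest being arrays 1 and 3. No marker was listed at 0. Among 6 antigens that the sort selected against, 2 were higher and 1 lower, with sums of 220 to 303 against 301 to 688. The part of these cells in the values of the repair genes was not tested directly, and results are also given without Cebpa Δ/Δ 1 and 3, a choice made after seeing the data.

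None of the 38 measured members differed at an adjusted p under 0.05 (limma, Benjamini-Hochberg over all genes), where the background was 0% of all genes in each direction. At an unadjusted p under 0.05 the helicase gene Wrn was higher, and the damage kinase gene Atm and the base excision gene Ogg1 were lower. These 3 genes made 7.89% of the members, against 7.48% of all genes tested in either direction. By direction, 1 member was higher against 4.4% of all genes and 2 were lower against 3.08%. At the thresholds of the study, which add a change over 1.5-fold to an unadjusted p of less than 0.05, 0 members were higher (1.57% of all genes) and 0 were lower (0.617% of all genes). In 1 member, Wrn, all Cebpa Δ/Δ arrays lay above all Cebpa fl/fl arrays (3.51% of all genes), and in 0 members did they all lie below (2.46% of all genes). A share of called members near that of all genes is no result about the members.

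The median log2 fold change of the members was 0.03, beside 0.00 for all genes, and 22 of the 38 estimates lay above 0. The lowest was that of Trp53bp1 (-0.23, SE 0.13) and the highest that of Wrn (0.51, SE 0.13). The precision of the 7 arrays decides what such values can say. For 24 members, 63.2%, the 95% interval of the difference lay within a 1.5-fold change in both directions, beside 74.2% of all genes and 61.3% of the genes above the median level. For the other 14 members the interval reached past a 1.5-fold change in at least 1 direction, so that a change of that size lay within the error of the estimate. These 14 were unevenly placed, with 6 of the 7 recombination members, all 3 of the Mre11 complex and 2 of the 4 Fanconi anaemia members among them, but 0 of the 7 members of base excision.

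**Figure D1:**
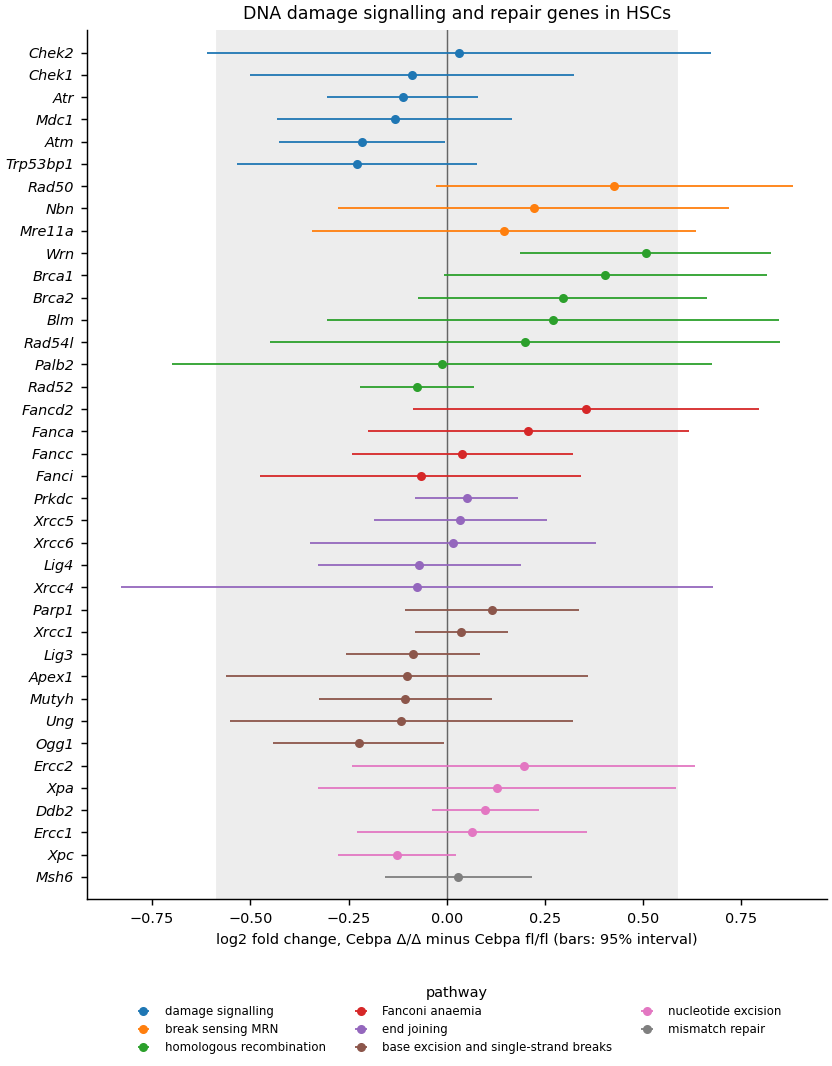
Log2 fold change, Cebpa Δ/Δ minus Cebpa fl/fl HSCs, of the 38 members, coloured by pathway (points: limma estimates; bars: 95% intervals; grey band: changes under 1.5-fold either way; 3 and 4 arrays). The interval of Wrn lies wholly above 0, those of Atm and Ogg1 end just below it, and no interval lies wholly outside the grey band.

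Promoter sequences were not used to choose the members. RefSeq promoters of the mouse build GRCm38.p6, from 250 bases before to 50 after the start, were at hand for 31 of the 38 members, and a gene with several starts was counted once if any of them held a motif. Both strands were searched for E2F motifs (TTTCCCGC, TTTGGCGC or TTTCGCGC), which mark genes of the S phase, for the cell cycle homology region (CHR, TTTGAA) of genes of mitosis, for the CCAAT box (CCAAT) and for half-conserved C/EBP motifs (TTGCNNAA, of which TTGCGCAA is the full palindrome). An E2F motif lay in 5 of the 31 member promoters (16.1%), Brca2, Chek2, Mdc1, Msh6 and Xrcc6, and in 2.12% of the 27025 genes of the table or 2.99% of those on the arrays. It lay in 9 of 75 promoters of the other repair genes (12%), so that both sets of repair genes held it more often than all genes did. No member promoter held the CHR, found in 12% of the other repair genes, in 20.2% of all genes and in 13 of 17 promoters of the G2 and mitosis list (76.5%). CCAAT boxes were found in 19 of the 31 (61.3%, against 48% of the other repair genes and 41.1% of all genes). The C/EBP motif was found in 3 of the 31 (9.68%, against 8% of the other repair genes and 12.2% of all genes), and the palindrome in 0 (0.207% of all genes). These are descriptions of letters in a window and not of binding.

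The 3 stretches with the C/EBP motif, that of the deleted factor's family, are given first, each as 60 bases before the start, 5′ to 3′ on the strand of the gene, with the match in capitals.
Atr, chr9:95857446-95857505, + strand: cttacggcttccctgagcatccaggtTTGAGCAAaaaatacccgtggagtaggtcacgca
Xrcc5, chr1:72307361-72307420, + strand: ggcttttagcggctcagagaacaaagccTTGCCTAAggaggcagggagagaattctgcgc
Lig3, chr11:82780859-82780918, + strand: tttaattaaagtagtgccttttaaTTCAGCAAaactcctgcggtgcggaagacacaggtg
The matches began 125 bases before the start in Atr, 32 in Xrcc5 and 226 in Lig3. None of these members passed a p of 0.05, and their log2 fold changes were -0.11 (SE 0.08) for Atr, 0.03 (SE 0.09) for Xrcc5 and -0.09 (SE 0.07) for Lig3.

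The 4 stretches with an E2F motif before the start, shown because its share among members was the highest relative to all genes of the motifs searched, had the matches in capitals at 152 bases (Chek2), 16 bases (Mdc1), 168 bases (Brca2) and 46 bases (Xrcc6) before the start.
Chek2, chr5:110839805-110839864, + strand: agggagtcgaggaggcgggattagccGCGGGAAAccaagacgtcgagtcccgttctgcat
Mdc1, chr17:35841438-35841497, + strand: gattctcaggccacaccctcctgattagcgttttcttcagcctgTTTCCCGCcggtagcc
Brca2, chr5:150522427-150522486, + strand: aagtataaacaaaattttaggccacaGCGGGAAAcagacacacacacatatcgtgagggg
Xrcc6, chr15:82016297-82016356, + strand: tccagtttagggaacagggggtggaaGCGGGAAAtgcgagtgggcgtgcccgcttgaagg
Their log2 fold changes were 0.03 (Chek2), -0.13 (Mdc1), 0.29 (Brca2) and 0.02 (Xrcc6), on both sides of 0, and Msh6, whose match lay after the start, was at 0.03.

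Of the members with the smallest p, the promoters of Atm, Ogg1 and Brca1 were in the table, and each held a CCAAT box, Ogg1 2 within the stretch shown (in capitals, ATTGG where it lay on the other strand), but neither an E2F nor a C/EBP motif.
Atm, chr9:53536804-53536863, - strand: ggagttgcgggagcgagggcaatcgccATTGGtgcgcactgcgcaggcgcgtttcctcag
Ogg1, chr6:113326755-113326814, + strand: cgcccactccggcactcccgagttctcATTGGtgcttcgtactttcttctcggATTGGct
Brca1, chr11:101552009-101552068, - strand: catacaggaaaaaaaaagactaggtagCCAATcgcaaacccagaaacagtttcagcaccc

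The signalling members were the kinases and adaptors that pass the damage signal on. Of their 6 estimates, 5 lay below 0, with a median of -0.12, and 1 passed an unadjusted p of 0.05 (16.7%, against 7.48% of all genes). The median was -0.25 without Cebpa fl/fl 3, and -0.06 without Cebpa fl/fl 1 and Cebpa Δ/Δ 3. Atm (probe set 10593526), the kinase at the head of the break response, measured 7.48, 7.53 and 7.34 on control arrays 1 to 3 and 7.34, 7.35, 7.10 and 7.15 on Cebpa Δ/Δ arrays 1 to 4. Cebpa Δ/Δ 3 and 4 were the lowest arrays, while Cebpa fl/fl 3 lay level with Cebpa Δ/Δ 1 and 2, so the genotypes overlapped. The log2 fold change was -0.22 (SE 0.09, limma p 0.0473, adjusted p 0.663), and the exact two-sided permutation p over the 35 splits of the arrays was 0.171. It ranged from -0.27 to -0.16 over the 19 alternatives, and kept a p under 0.05 in 8 of them. On the linear scale the ratio of Cebpa Δ/Δ to control was 0.861.

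Trp53bp1, whose product 53BP1 shields broken ends from resection, measured 8.21, 7.86 and 7.86 in Cebpa fl/fl and 7.74, 7.87, 7.51 and 7.86 in Cebpa Δ/Δ HSCs (log2 fold change -0.23, SE 0.13). Its difference rested on Cebpa fl/fl 1 as the highest array and Cebpa Δ/Δ 3 as the lowest, and was -0.03 without these. Mdc1, the scaffold that reads phosphorylated H2AX, lay between 9.35 and 9.42 on 6 arrays and at 8.93 on Cebpa Δ/Δ 3 (-0.13, SE 0.12). The ATR kinase gene Atr (-0.11, SE 0.08) and its effector kinase gene Chek1 (-0.09, SE 0.17) did not differ beyond their spread. Chek2, the kinase below ATM, had the widest Cebpa fl/fl spread of the 6, from 6.88 to 8.06, around a difference of 0.03 (SE 0.27). Its interval, -0.61 to 0.67, was the only one of the 6 to reach past a 1.5-fold change.

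Other genes of damage signalling numbered 14 measured of 15 listed, of which 1 was higher and 0 were lower at an unadjusted p under 0.05. That gene was Rnf168, a ubiquitin ligase of the chromatin around breaks (log2 fold change 0.30, SE 0.11, p 0.0285). The next smallest p-values were those of Atrip, the partner of ATR (-0.35, SE 0.15), and Rad1, a subunit of the 9-1-1 clamp (0.53, SE 0.24), neither of which passed. Over the 8 other repair lists together, 95 of 105 genes were measured, 4 were higher (4.21%, against 4.4% of all genes) and 1 was lower (1.05%, against 3.08%). At the thresholds of the study 2 of the 95 were higher, 2.11% against 1.57% of all genes. Of these 95 genes, 3 had arrays that did not overlap and were higher (against 3.51% of all genes) and 2 were lower (against 2.46%).

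The Mre11 complex was above 0 in its 3 members, with a median log2 fold change of 0.22, but none passed the test. The median was 0.04 without Cebpa fl/fl 3 and 0.36 without Cebpa fl/fl 2. Rad50 (probe set 10385842), the ATPase that tethers the broken ends, measured 7.81, 8.48 and 7.74 in Cebpa fl/fl and 8.48, 8.59, 8.31 and 8.38 in Cebpa Δ/Δ HSCs. Cebpa fl/fl 2 lay among the Cebpa Δ/Δ arrays, and the other 2 control arrays lay well below them all. The log2 fold change of 0.43 (SE 0.19, limma p 0.0615) therefore turned on which control arrays were kept, and was 0.66 (p 0.0006) without Cebpa fl/fl 2 and 0.29 (p 0.201) without Cebpa fl/fl 3. Nbn, which brings the complex to ATM, ranged from 6.86 to 7.57 in Cebpa fl/fl and from 7.33 to 7.87 in Cebpa Δ/Δ (0.22, SE 0.21), and its other probe set gave 0.15. Mre11a, the nuclease, had its highest value, 8.10, on Cebpa Δ/Δ 3 and ran from 7.25 to 7.60 on the other arrays (0.15, SE 0.20).

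Homologous recombination held the member with the highest difference, which was also the only one whose genotypes did not overlap. Its 7 measured members had a median log2 fold change of 0.27, with 5 of 7 above 0. Of the 7, 1 passed an unadjusted p of 0.05 (14.3%, against 7.48% of all genes). Wrn (probe set 10578071), a RecQ helicase that unwinds DNA structures at stalled forks and telomeres, measured 7.99, 7.99 and 7.76 on control arrays 1 to 3. On Cebpa Δ/Δ arrays 1 to 4 it measured 8.73, 8.42, 8.25 and 8.27. All 4 Cebpa Δ/Δ arrays lay above all 3 controls, with Cebpa Δ/Δ 1 the highest. The log2 fold change of 0.51 (SE 0.13, 95% interval 0.19 to 0.82) was a 1.42-fold difference, with a limma p of 0.00761 and an adjusted p of 0.529. The exact permutation test gave a two-sided p of 0.0286, below which 7 arrays cannot go. It ranged from 0.40 to 0.60 over the 19 alternatives, with an unadjusted p under 0.05 in each of the 19, and was 0.43 (p 0.0135) without Cebpa Δ/Δ 1 and 3. By p it ranked 287 among the 19938 genes.

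Brca1 (probe set 10391461), which starts recombination by helping to cut back the ends, measured 6.27, 6.08 and 6.52 in Cebpa fl/fl and 6.78, 6.52, 7.03 and 6.45 in Cebpa Δ/Δ HSCs. Cebpa Δ/Δ 1 and 3 lay above all controls, whereas Cebpa Δ/Δ 2 and 4 lay at or below Cebpa fl/fl 3. The difference was 0.40 (SE 0.17, limma p 0.0533), and was 0.19 (p 0.257) without Cebpa Δ/Δ 1 and 3. Brca2, a large protein that acts after the ends are cut back, stood at 6.23, 6.78 and 6.33 against 6.96, 6.70, 6.60 and 6.70 (0.29, SE 0.15). Here Cebpa fl/fl 2 was the array that overlapped, and without it the difference was 0.46 (limma p 0.00837). It was 0.18 (p 0.301) without Cebpa fl/fl 1 and 0.24 (p 0.247) without Cebpa fl/fl 3. Only 1 of the 19 alternatives gave Brca2 a p under 0.05. Palb2, the bridge between both proteins, was below the median level of all genes and did not differ (-0.01, SE 0.29).

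Blm, a RecQ helicase that dissolves joined chromosomes, measured 7.79 and 8.14 on Cebpa Δ/Δ 1 and 3, above all other arrays, which lay between 7.12 and 7.41 (0.27, SE 0.24). Rad54l, a motor protein of strand exchange, showed the same 2 arrays on top, at 7.57 and 8.21, with the other arrays between 7.06 and 7.46 (0.20, SE 0.27). Without Cebpa Δ/Δ 1 and 3, a pair chosen after seeing the data, their estimates were below 0, at -0.09 for Blm and -0.15 for Rad54l. In Brca1, Blm and Rad54l these were the highest Cebpa Δ/Δ arrays, so leaving them out had to lower the estimates. Rad52, an annealing protein, had equal values of 7.58 on 5 arrays (-0.08, SE 0.06). The median of the 7 recombination members turned with these arrays as well, from 0.27 to 0.09 without Cebpa Δ/Δ 3 and to -0.09 without Cebpa Δ/Δ 1 and 3.

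**Figure D2:**
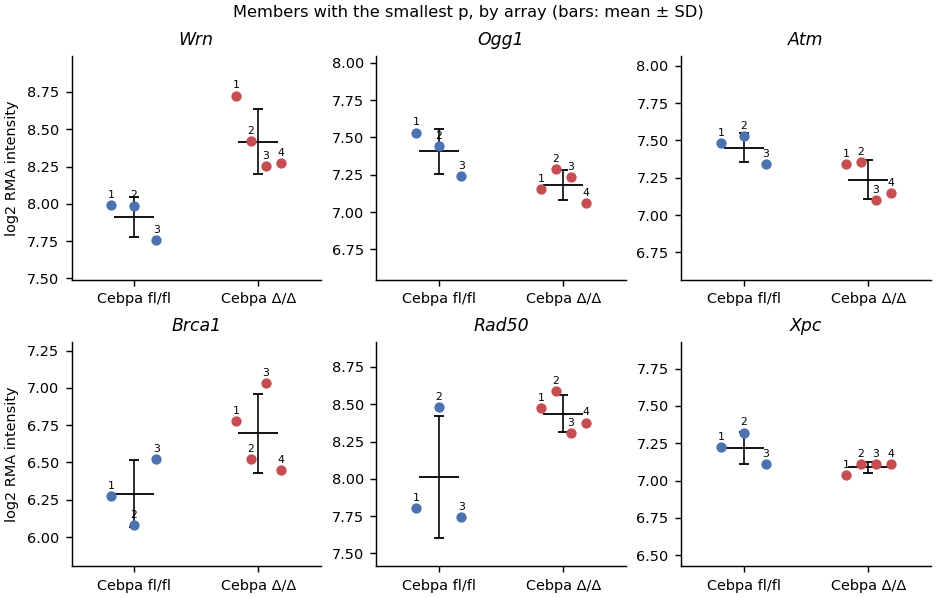
Log2 RMA intensity of the 6 members with the smallest limma p, by genotype (points: arrays, numbered as in the labels; bars: mean ± SD, n = 3 and 4; every vertical axis spans the same range). Only the arrays of Wrn are fully apart, and Cebpa fl/fl 2 in Rad50 and Cebpa fl/fl 3 in Brca1 lie among the Cebpa Δ/Δ arrays.

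Other genes of recombination numbered 20 measured of 22 listed, and 0 passed an unadjusted p of 0.05 in either direction. The highest difference was that of Gen1, the resolvase that cuts Holliday junctions, at 0.91 (SE 0.38, p 0.0504). Its arrays stood at 5.06, 5.43 and 5.99 in Cebpa fl/fl and 6.89, 6.89, 6.24 and 5.59 in Cebpa Δ/Δ HSCs, with Cebpa Δ/Δ 4 within the range of the controls. Recql, a RecQ helicase like Wrn and Blm, was at 0.38 (SE 0.17). The median of these 20 genes, 0.06, was lower than that of the recombination members, a difference that was not tested.

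The arrays that were high for recombination were also high for genes of the cell cycle. Cell cycle level is given as a score, in which each gene is centred on its own mean of the 7 arrays and the list is then averaged. The recombination members scored -0.01, -0.19 and -0.19 on control arrays 1 to 3 and 0.21, -0.09, 0.32 and -0.05 on Cebpa Δ/Δ arrays 1 to 4. The 20 S phase genes scored -0.03, -0.05 and -0.38, and then 0.38, -0.08, 0.33 and -0.16. Cebpa Δ/Δ 1 and 3 were thus highest in both scores. Not every recombination member had this order, and in Wrn and Brca2 Cebpa Δ/Δ 3 was the lowest Cebpa Δ/Δ array. Of the S phase genes 1 was higher at an unadjusted p under 0.05, the cyclin gene Ccne1 (1.16, SE 0.35), while Uhrf1 (0.26, SE 0.15) and the replicative helicase gene Mcm2 (0.34, SE 0.20) did not pass. The 21 genes of G2 and mitosis scored -0.54, -0.02 and -0.32 against 0.56, 0.17, 0.28 and -0.13. Of these, 12 were higher and 0 lower, among them Birc5 (0.95, SE 0.19), Nusap1 (0.65, SE 0.21), the checkpoint kinase gene Bub1 (0.81, SE 0.29), Ube2c (0.90, SE 0.34) and the cyclin genes Ccna2 (0.63, SE 0.25) and Ccnb2 (0.73, SE 0.30). The erythroid genes were highest on Cebpa Δ/Δ 1 and 3 too (1.41 and 1.18, against 0.41 and 0.49 on Cebpa Δ/Δ 2 and 4), and the HSC genes lowest (-0.31 and -0.58). The part of cycling or erythroid cells in the recombination values was not tested.

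**Figure D3:**
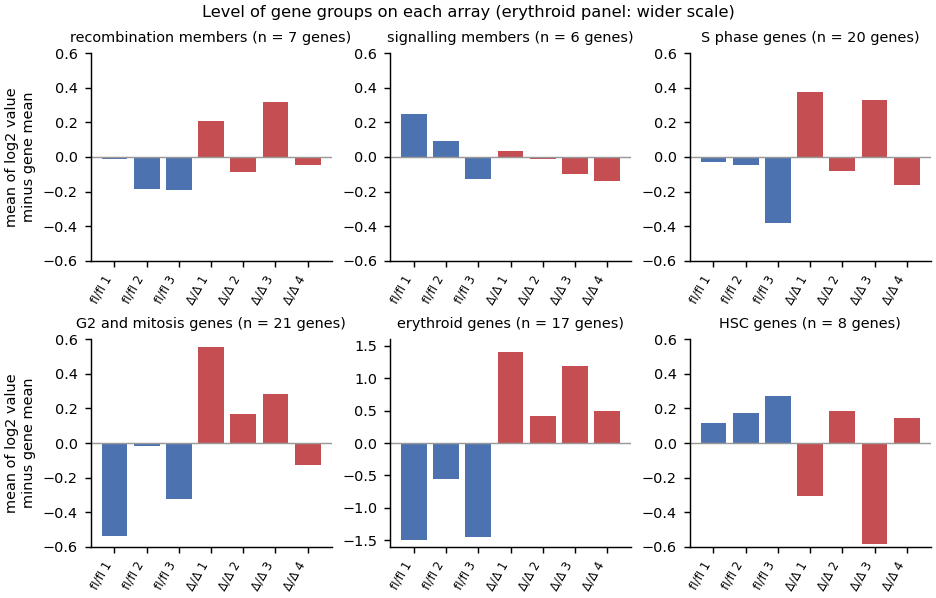
Mean over each gene list of the log2 value minus the gene's mean over the 7 arrays, for every array (bars; blue: Cebpa fl/fl, red: Cebpa Δ/Δ; the erythroid panel has a wider scale). Cebpa Δ/Δ 1 and 3 are the highest arrays for recombination, S phase and erythroid genes and the lowest for HSC genes, while the signalling members run from 0.25 to -0.14 in no such order.

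The Fanconi anaemia members had a median log2 fold change of 0.12, with 3 of 4 above 0 and none past the test. Fancd2, whose monoubiquitination switches the pathway on, measured 5.57, 6.01 and 5.74 in Cebpa fl/fl and 6.57, 5.99, 5.98 and 5.98 in Cebpa Δ/Δ HSCs (0.35, SE 0.18, p 0.0972). Cebpa Δ/Δ 1 stood alone there, and the other 3 arrays lay within the range of the controls. Fanci, the partner of Fancd2, was at 6.11 in all 3 controls and ran from 5.58 to 6.29 in Cebpa Δ/Δ (-0.07, SE 0.17). Fanca and Fancc, subunits of the core ubiquitin ligase, were at 0.21 (SE 0.17) and 0.04 (SE 0.12). The median of the 4 was 0.07 without Cebpa Δ/Δ 3, 0.19 without Cebpa Δ/Δ 4 and -0.01 without Cebpa Δ/Δ 1 and 3. Of the 11 other Fanconi genes measured 1 was higher, Usp1, which removes ubiquitin from FANCD2 (0.65, SE 0.25, p 0.0400), and 0 were lower. Usp1 measured 8.13, 8.56 and 7.46 in Cebpa fl/fl and 8.90, 8.54, 8.64 and 8.70 in Cebpa Δ/Δ HSCs. Ube2t, the E2 enzyme of the pathway (0.21, SE 0.17), and Wdr48, a cofactor of Usp1 (-0.09, SE 0.07), had the next smallest p-values.

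End joining, the pathway open to resting cells, had 5 members with differences between -0.08 and 0.05 and a median of 0.02, which ran from -0.05 to 0.05 with 1 array left out. Xrcc5 and Xrcc6 encode the Ku ring that threads onto the ends, and were at 0.03 (SE 0.09) and 0.02 (SE 0.15). Prkdc, the kinase held by Ku, had the smallest SE of the 5, at 0.05 (SE 0.05, 95% interval -0.08 to 0.18). Its values were equal on 4 arrays, so this error may be understated. Lig4, the ligase that seals the break, was at -0.07 (SE 0.11). For these 4 the interval lay within a 1.5-fold change in both directions. Xrcc4, the partner of Lig4, had the widest spread within genotypes of all members, with 6.46, 7.59, 6.32 and 6.97 on Cebpa Δ/Δ 1 to 4, and its interval ran from -0.83 to 0.68. Cebpa Δ/Δ 2 and 4 were higher than Cebpa Δ/Δ 1 and 3, the reverse of the order in Brca1, Blm and Rad54l.

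Of the 7 other end joining genes measured, 1 was higher and 0 were lower at an unadjusted p under 0.05. Aplf, a histone chaperone that binds Ku, had the highest difference of a gene past the test among the 133 repair genes, at 0.83 (SE 0.24, p 0.0121, adjusted p 0.619). It measured 5.80, 6.41 and 6.53 in Cebpa fl/fl and 7.05, 7.03, 7.51 and 6.71 in Cebpa Δ/Δ HSCs, so that the lowest Cebpa Δ/Δ array lay above the highest control. It kept a p under 0.05 in 18 of the 19 alternatives. Tdp2 (-0.31, SE 0.18) and Nhej1, the factor XLF (0.54, SE 0.34), did not pass.

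**Figure D4:**
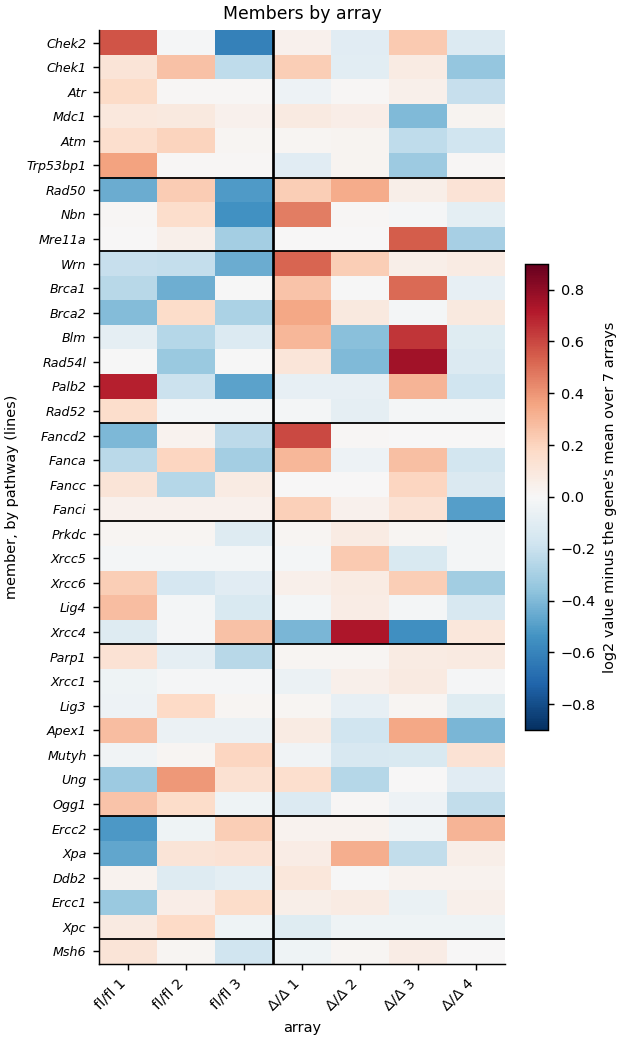
Log2 value minus the gene's mean over the 7 arrays for the 38 members (rows, grouped by pathway between the lines) on each array (columns; the vertical line parts Cebpa fl/fl from Cebpa Δ/Δ). Cebpa Δ/Δ 1 and 3 are red for Brca1, Blm and Rad54l, while Cebpa fl/fl 1 holds the highest value of 11 members and Cebpa fl/fl 3 the lowest of 10.

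In base excision and single-strand break repair all 7 intervals lay within a 1.5-fold change. Its median log2 fold change was -0.10, with 5 of 7 estimates below 0, and was -0.02 without Cebpa fl/fl 2. Of the 7, 1 passed an unadjusted p of 0.05 (14.3%, against 7.48% of all genes). Ogg1 (probe set 10540639), the glycosylase that removes oxidised guanine, measured 7.53, 7.44 and 7.24 in Cebpa fl/fl and 7.15, 7.29, 7.23 and 7.06 in Cebpa Δ/Δ HSCs. The genotypes overlapped only through Cebpa fl/fl 3, which lay below Cebpa Δ/Δ 2. The log2 fold change was -0.22 (SE 0.09, limma p 0.0444, adjusted p 0.663, exact two-sided permutation p 0.0857), a linear ratio of 0.856. Only 3 of the 19 alternatives kept a p under 0.05, with values from -0.31 to -0.16.

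The glycosylase genes Mutyh (-0.11, SE 0.09), which acts on adenine opposite oxidised guanine, and Ung (-0.12, SE 0.18), which removes uracil, did not pass, and neither did Apex1, the nuclease that cuts the emptied site (-0.10, SE 0.19). The sealing enzymes stayed near 0, with Lig3 at -0.09 (SE 0.07) and its scaffold Xrcc1 at 0.04 (SE 0.05), the smallest SE of any member. Parp1, the sensor of single-strand breaks, lay between 8.42 and 8.48 on the Cebpa Δ/Δ arrays and between 8.15 and 8.53 on the controls (0.12, SE 0.09). Of the 13 other genes of this pathway measured, 0 passed an unadjusted p of 0.05. Fen1, the flap nuclease that also serves replication (0.53, SE 0.27), the glycosylase gene Mpg (-0.27, SE 0.14) and Aptx (0.16, SE 0.09) had the smallest p-values.

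The 5 nucleotide excision members ran from -0.13 to 0.20, with a median of 0.10, and none passed the test. The median turned with 1 array, to -0.07 without Cebpa fl/fl 1, and was 0.16 without Cebpa fl/fl 3 and 0.05 without Cebpa Δ/Δ 2. Xpc, which finds distorted DNA, measured 7.22, 7.32 and 7.11 in Cebpa fl/fl and 7.03, 7.11, 7.11 and 7.11 in Cebpa Δ/Δ HSCs (-0.13, SE 0.06, p 0.0831). Ddb2, a damage sensor, was at 0.10 (SE 0.06) and Xpa at 0.13 (SE 0.19). The nuclease subunit gene Ercc1 was at 0.06 (SE 0.12) and the TFIIH helicase gene Ercc2 at 0.20 (SE 0.18). In Ercc1, Ercc2 and Xpa the lowest array was Cebpa fl/fl 1. Among 16 other nucleotide excision genes 1 was higher and 0 were lower, namely the nuclease gene Ercc5 (0.24, SE 0.07, p 0.0141), whose arrays did not overlap. Ercc8 (-0.32, SE 0.14) and Xab2 (-0.13, SE 0.06) did not pass, although the Cebpa Δ/Δ arrays of Xab2 all lay below the controls. In mismatch repair Msh6, which reads mispaired bases, was at 0.03 (SE 0.08, 95% interval -0.16 to 0.22). The 4 other mismatch genes measured held 0 genes past the test, with the smallest p-values in Pms2 (-0.17, SE 0.13), Pms1 (-0.15, SE 0.14) and Msh3 (-0.03, SE 0.06).

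Of 10 genes of lesion bypass and direct reversal, which let replication pass damaged bases or undo the damage, 0 were higher and 1 was lower by an unadjusted p of 0.05. Poli, a bypass polymerase, measured 7.85, 7.89 and 7.90 in Cebpa fl/fl and 7.76, 7.79, 7.79 and 7.73 in Cebpa Δ/Δ HSCs, a difference of -0.11 (SE 0.04, p 0.0341) without overlap. Rev1 (-0.22, SE 0.15) and Mad2l2 (-0.19, SE 0.14) did not pass. Of 25 genes listed around p53, the transcription factor that damage signalling switches on, 22 were measured. Cdkn1a, Bax and Trp53 were not among them. By an unadjusted p of 0.05, 9.09% passed, against 7.48% of all genes in either direction, with 2 higher and 0 lower. These were Phlda3, an inhibitor of AKT (0.43, SE 0.07, p 0.001), and the stress gene Gadd45g (0.71, SE 0.22, p 0.015), in both of which the arrays did not overlap, and the cyclin G gene Ccng1 was at 0.45 (SE 0.19, p 0.0592). Both Phlda3 and Gadd45g were below the median level of all genes.

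In 22 of the 38 members at least 2 arrays held exactly the same log2 value to 6 decimals, as they did in 63.6% of all genes. Fanci and Xrcc5 were equal on all 3 controls, and Xrcc5 and Rad52 on 5 of the 7 arrays. Prkdc and Xpc were equal on 4 arrays and Xrcc1 on 3. What makes the values equal was not tested. Equal values shrink the spread that the test reads for these genes. The errors of Xrcc5, Rad52, Fanci, Prkdc, Xpc and Xrcc1, and the widths of their intervals, may therefore be understated. The same holds for the other members with equal values.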

How the data were processed

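HSC RNA was amplified (NuGEN Ovation Pico), labelled and measured on Affymetrix Mouse Gene ST arrays. The authors computed the deposited intensity values by RMA (Partek Genomics Suite, per the study's methods; RMA and affy, without versions, per the submitters' processing notes). The deposited values were linear, from 1.51 to 9840, and log2 was taken without a pseudocount. The genome build behind the probe sets is not given in the sources used here. The number of arrays limits the precision.

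Of 35556 probe sets, 21789 had 1 gene symbol, 1621 had several and 12146 were unnamed here. Symbols of 21698 were brought up to date through Entrez numbers, and for 999 genes the brightest of several probe sets was used, which left 19938 genes. 0 columns of values were unused. Genotype, taken from the labels, was the only term in lmFit and eBayes (limma 3.58.1, R 4.3.3), with Benjamini-Hochberg adjustment at 0.05. The study names no test for the arrays, so its thresholds were read from limma's p. Intervals are at 95%, and single values also had an exact two-sided permutation test over 35 splits. Scores, motif searches and figures were made in Python 3.11.15.

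The members and all gene lists were chosen with earlier results of these data known. All members were named, with every array for those with a p under 0.05. From each repair, cell cycle and p53 list the 3 genes with the smallest p and any past the study's thresholds were named, up to 6, except 1 recombination gene that is not reported here. Markers of other cells are given as counts, sums or scores of whole lists and not by gene. The series' design counts as many mice as arrays, 3 and 4, although the labels speak of triplicates. The fit was tested on simulated data of independent normal values, which held neither equal values nor effects shared by an array. That test therefore cannot judge the errors of genes with equal values. Of alternatives, 19 were tried, 18 of them planned. Replicate numbers gave no sign of pairing the samples and were not used in the main fit.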

Additional observations from a re-analysis of the deposited data

Results flagged for a closer look

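Over the 4 Cebpa Δ/Δ arrays of each of the 38 members, the gap between an extreme array and its neighbour was compared with the whole range. It passed Dixon's critical value at 95% in 4 members, and chance gives such a gap in about 1 of 20 groups. In Mdc1 the array Cebpa Δ/Δ 3 was low, at 8.93 against 9.35 for the next (gap over range 0.887). In Fancd2 the array Cebpa Δ/Δ 1 was high, at 6.57 against 5.99 (0.988). In Rad52 the array Cebpa Δ/Δ 2 was at 7.51 and in Xpc the array Cebpa Δ/Δ 1 was at 7.03, and in both the other 3 arrays held equal values, of 7.58 and 7.11, which makes the ratio 1.0. No explanation was tested for these gaps.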

How the results depend on the processing

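The difference of Wrn kept its direction and an unadjusted p under 0.05 under all 19 alternatives, and Cebpa stayed lower under the 18 that kept it (-0.48 to -0.36). No member, and no other repair gene, passed an adjusted p of 0.05 under any alternative. Of the 38 member estimates, 20 kept their sign under every alternative and 18 changed it under at least 1. The median of the members ranged from -0.05 to 0.06, and was -0.053 when Cebpa Δ/Δ 1 and 3 were left out together, a choice made after seeing the data. The other counts are small, and the genes behind them change: without Cebpa fl/fl 1 Parp1 and Ddb2 passed an unadjusted p of 0.05 and without Cebpa fl/fl 2 Rad50 and Brca2 did, while Atm and Ogg1 passed in neither case.

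At an unadjusted p under 0.05 the members higher and lower, 1 and 2 as reported, became 2 and 1 with array medians subtracted, 3 and 1 with cyclic loess, 1 and 1 with quantile normalization, and 2 and 0 among genes above the median level. Array weights, a variance trend, no moderation and raised low values (below the percentile 25) each left 1 higher and 0 lower. Leaving out 1 array gave 1 to 3 higher and 0 to 3 lower. Leaving out Cebpa fl/fl 1 and Cebpa Δ/Δ 3 together gave 3 and 0, and Cebpa Δ/Δ 1 and 3 together 1 and 0. At the study's thresholds 1 member was higher without Cebpa fl/fl 2 (Rad50) and 1 without Cebpa fl/fl 1 and Cebpa Δ/Δ 3 (Wrn), so leaving out 1 array gave 0 to 1.

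Of the other repair genes, 1 was lower as reported, and 2 were with quantile normalization, array weights or raised low values, 0 with a variance trend or among genes above the median level, 4 without Cebpa fl/fl 1 and Cebpa Δ/Δ 3 and 4 without Cebpa Δ/Δ 1 and 3. Leaving out 1 array gave 1 to 3 lower and 2 to 6 higher, and 1 were higher without Cebpa Δ/Δ 1 and 3. At the study's thresholds 2 were higher as reported, 1 with no moderation or raised low values, 1 to 3 with 1 array left out, and 0 with either pair of arrays left out.

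Same-numbered arrays correlated at -0.02, 0.10 and -0.18 in their deviations from the group means, and differently numbered arrays at -0.20 to 0.33. The replicate numbers thus gave no sign of pairing, but so few values cannot exclude it. With the replicate block, which drops Cebpa Δ/Δ 4, 3 members were higher (Rad50, Brca1 and Wrn) and 1 lower (Atm), and 3 other repair genes were lower.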
